A study of Mus musculus with 16 samples.

Results

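Gata2, Runx1, Tal1, Lmo2, Lyl1, Erg, Fli1, Gfi1b, Ldb1 and Etv6 are 10 transcription factors and cofactors that act together in haematopoietic stem cells (HSCs). They were taken by name, a choice made with earlier results of these data known, and all 10 were found among the 46078 genes counted. The RNA-Seq experiment covered HSCs from C57/Bl6 mice, sorted into pools of 30 viable cells (LSK CD48-CD150+) from leg and arm bones. The WT and Gfra2-/- mice were untreated, and the bone-associated (endosteal) and central bone marrow (BM) were collected separately. The 15 libraries used here were 4 of endosteal and 4 of central WT HSCs, 4 of endosteal HSCs labelled Gfra2-/- and 3 of central HSCs labelled Gfra2-/-, and they are called A to D within each group. Gfra2 encodes GFRα2, the GDNF family receptor alpha-2, whose ligand is neurturin and which cholinergic neurons need to survive. The study used the Gfra2-/- mice as a model of reduced cholinergic innervation. Nothing in the labels limits the deletion to nerves, and the ages of the mice were not given in the sources used here.

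Blood stem cells are held in their state by a small set of factors that bind the same enhancers and promoters as one assembly. The basic helix-loop-helix proteins TAL1 and LYL1 contact E-box motifs, GATA2 contacts GATA motifs, and LMO2 with LDB1 bridges them and brings distant elements together. RUNX1 and the ETS factors ERG and FLI1 bind next to this core. ETV6 and GFI1B are mainly repressors, GFI1B through the lysine demethylase KDM1A and its partner RCOR1. Loss of any one of several of these genes abolishes or impairs blood stem cells, and several are rearranged in leukaemia.

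The promoters of Tal1 and of its closest relative, Lyl1, are shown because the ratio of these 2 genes differed most between the groups in the results that follow. RefSeq (GRCm38.p6) gave windows from 250 bases before to 50 bases after a start site for 8 of the 10 genes, 15 windows in all, and none for Lmo2 or Fli1. Tal1, at chr4:115056426-115071755 on the plus strand, has 2 such windows, at chr4:115056176-115056475 and chr4:115057561-115057860. Lyl1, at chr8:84701457-84704715 on the plus strand, has 1, at chr8:84701207-84701506. Capitals mark matches, on either strand, to GATAA (bound by GATA factors), GGAAG (ETS factors) and CAGATG (E-box factors).
Tal1 first window: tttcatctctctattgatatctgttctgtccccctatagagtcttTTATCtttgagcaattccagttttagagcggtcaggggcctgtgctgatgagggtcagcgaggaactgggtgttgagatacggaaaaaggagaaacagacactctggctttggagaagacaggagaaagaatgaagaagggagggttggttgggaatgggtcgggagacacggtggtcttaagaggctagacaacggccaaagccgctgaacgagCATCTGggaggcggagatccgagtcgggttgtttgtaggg
Tal1 second window: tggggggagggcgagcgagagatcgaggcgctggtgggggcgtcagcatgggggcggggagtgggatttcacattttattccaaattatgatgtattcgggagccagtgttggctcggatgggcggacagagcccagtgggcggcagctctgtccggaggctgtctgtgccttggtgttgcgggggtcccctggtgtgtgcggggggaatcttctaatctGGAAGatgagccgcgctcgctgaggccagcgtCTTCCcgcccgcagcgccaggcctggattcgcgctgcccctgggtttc
Lyl1 window: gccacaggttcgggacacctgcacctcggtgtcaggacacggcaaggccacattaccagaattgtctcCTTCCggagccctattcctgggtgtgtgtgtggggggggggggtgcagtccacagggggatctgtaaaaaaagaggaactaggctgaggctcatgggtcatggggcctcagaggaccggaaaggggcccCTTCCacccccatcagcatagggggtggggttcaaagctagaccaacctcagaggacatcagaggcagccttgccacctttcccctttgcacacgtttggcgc
The first Tal1 window holds GATAA and CAGATG, each on the opposite strand, and no GGAAG. The second Tal1 window holds GGAAG once on each strand, and the Lyl1 window holds it at 2 places on the opposite strand. GATAA stood in 4 of the 15 windows of the 10 genes (26.7%) and in 25.4% of all 32851 windows. GGAAG stood in 8 of the 15 (53.3%), against 71.4% of all windows, and CAGATG in 1 of 15 (6.67%), against 17.2%. The E-box CAGCTG and the RUNX motif TGTGGT also stood in 1 of the 15 windows each, in Gata2 and Runx1, against 16.3% and 16.8% of all windows. No motif of these overlaps another in the windows shown, and a match is only a run of letters.

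Libraries differed in depth. Reads on genes ranged from 4416648 to 14003634 in WT endosteal, from 826487 to 3367289 in WT central, from 8519094 to 18550008 in Gfra2-/- endosteal and from 7649803 to 14716308 in Gfra2-/- central libraries. WT central libraries were the shallowest, and the lowest count of any of the 10 genes in any library was 45 reads (Lyl1 in WT central C). In 4 libraries, 1 in each group (D, and C for Gfra2-/- central), spike-in reads made up less than 0.5% of the reads, and these are called the libraries of low spike-in share. Kit, Ly6a, Slamf1, Procr and Hlf, genes of the sort gate and of HSCs, were counted in all 15 libraries and Cd48 reached at most 17.4 CPM. B cell genes summed to 1837 CPM over 4 markers in Gfra2-/- endosteal D, against at most 321 CPM in the other libraries. Neutrophil genes summed to 3211 CPM over 7 markers in WT central D, against at most 14.8 CPM elsewhere. Erythroid genes summed to 612 CPM over 7 markers in Gfra2-/- endosteal D as well, against at most 143 CPM elsewhere. Megakaryocyte genes summed over 6 markers to between 140 CPM (WT central D) and 727 CPM (Gfra2-/- endosteal A). T cell genes summed over 4 markers to between 0 CPM (Gfra2-/- endosteal D) and 159 CPM (WT endosteal A). Of 4 endothelial genes, Cdh5 was at 0 in all libraries, Emcn and Pecam1 were counted in all 15 (11.3 to 300.2 and 17.7 to 97.2 CPM) and Kdr in 10 (up to 127 CPM), and these 4 summed to 48.0 to 322 CPM. Of 5 stromal and bone genes, which summed to 94.4 to 283 CPM, Lepr reached at most 0.0503 CPM and Runx2 was counted in all 15 (94.4 to 283 CPM). Gfra2 itself had 0, 0, 0 and 1 reads in WT endosteal, 0, 0, 4 and 0 in WT central, 2, 47, 1 and 9 in Gfra2-/- endosteal and 0, 1 and 0 in Gfra2-/- central libraries. Taken at face value, the reads in Gfra2-/- endosteal B and D, the most of any library, go against their label. Counts do not show where in the gene reads lie, and WT libraries held few or none. These reads therefore do not settle the genotype. The text speaks of libraries labelled Gfra2-/-, and results are also given without endosteal B and D. Values are CPM, the reads of a gene per 1000000 reads on genes, after TMM scaling over all 15 libraries, and in pools of cells fewer expressing cells and less RNA per cell cannot be told apart.

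The 10 genes were among the more highly expressed genes of these cells. The mean level over all 15 libraries stood between the 90.4th percentile (Gfi1b) and the 99.8th percentile (Lmo2) of the 25361 genes with a read. Divided by the length of the gene's exons, Lmo2 had the highest level, 489 ± 69.6 CPM per kilobase (SD, n = 15). Lyl1 followed at 114 ± 37.0 CPM per kilobase, then Fli1 at 71.4 ± 29.7, Gata2 at 71.3 ± 22.0, Gfi1b at 50.9 ± 28.6, Etv6 at 50.5 ± 16.7, Tal1 at 35.3 ± 24.8, Erg at 33.6 ± 14.4, Ldb1 at 22.4 ± 12.7 and Runx1 at 18.5 ± 7.36 CPM per kilobase. Lmo2 lay above the next gene in every library. All other neighbours in this order overlapped over the 15 libraries and do not differ beyond their spread, apart from Lyl1, whose lowest library lay above the highest of the next gene within both groups labelled Gfra2-/-. The place of Tal1 in the order of group means varied from the fifth in WT central to the tenth, and last, in Gfra2-/- endosteal libraries. Runx1 was the last in the other 3 groups.

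**Figure D1:**
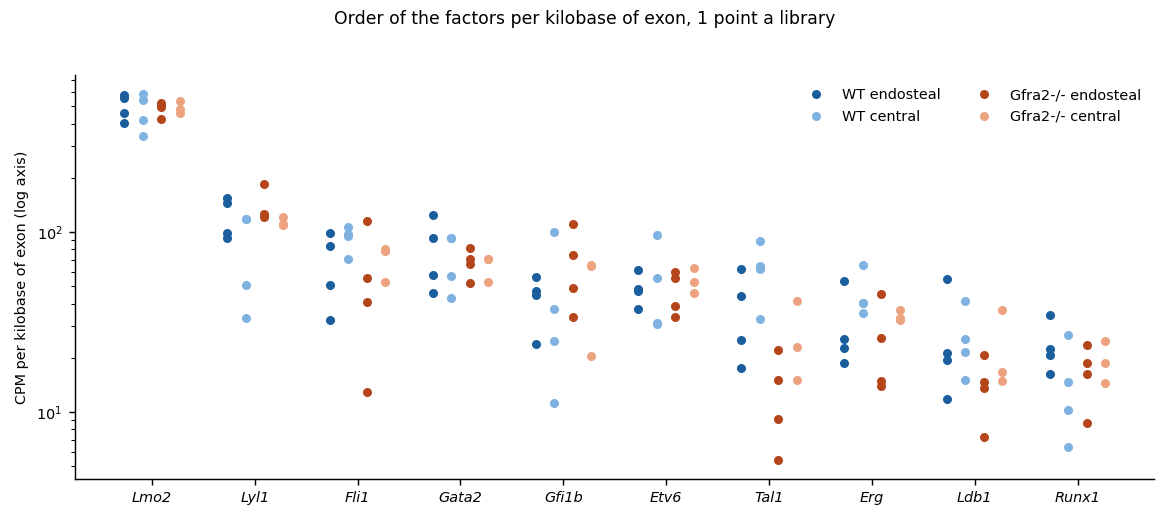
Levels of the 10 factors in CPM per kilobase of exon, on a log axis, with 1 point for each of the 15 libraries, coloured by group and ordered by the mean over all libraries. Lmo2 stands apart at the top at a mean of 489 CPM per kilobase, and all the genes below it overlap with their neighbours over the 15 libraries.

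Tal1 varied most of the 10 genes. This basic helix-loop-helix factor, needed to form blood stem cells, measured 274, 76.3, 109 and 192 CPM in WT endosteal libraries A to D and 285, 144, 274 and 392 CPM in WT central libraries A to D. It measured 39.7, 65.7, 96.3 and 23.5 CPM in Gfra2-/- endosteal libraries A to D and 65.5, 101 and 180.2 CPM in Gfra2-/- central libraries A to C. The lowest value was that of Gfra2-/- endosteal D, which holds B cell genes, and the highest that of WT central D, which holds neutrophil genes. Each group labelled Gfra2-/- overlapped with the WT group of its compartment in part. Group means were 163 ± 88.8 CPM (SD, n = 4) in WT endosteal, 274 ± 101 CPM (n = 4) in WT central, 56.3 ± 31.9 CPM (n = 4) in Gfra2-/- endosteal and 116 ± 58.7 CPM (n = 3) in Gfra2-/- central HSCs. The highest group mean was 4.86 times the lowest, where the other 9 genes had ratios between 1.05 (Lmo2) and 1.92 (Ldb1).

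Lyl1, the relative of TAL1 that can replace it in part in adult stem cells, ran otherwise. It measured 261, 178, 167 and 278 CPM in WT endosteal and 91.3, 212, 60.2 and 212 CPM in WT central libraries. It measured 224, 227, 219 and 333 CPM in Gfra2-/- endosteal and 217, 196 and 199 CPM in Gfra2-/- central libraries. The 2 lowest values were those of WT central A and C, the 2 shallowest libraries, with 101 and 45 reads on the gene. The 7 libraries labelled Gfra2-/- lay between 196 and 333 CPM, and both their groups overlapped with WT endosteal libraries. Lyl1 shares 4 exon bases with Nfix on the other strand.

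The bridging proteins differed in how even they were. Lmo2 (chr2:103957986-103981878, all positions in GRCm38), the LIM-only protein of the complex, measured 1255, 994, 879.7 and 1201 CPM in WT endosteal, 913, 1274, 1172 and 745 CPM in WT central, 1078, 920.4, 1104 and 1137 CPM in Gfra2-/- endosteal and 1051, 1168 and 989.9 CPM in Gfra2-/- central libraries. Its highest library was 1.71 times its lowest, the smallest span of the 10 genes, and its coefficient of variation over 15 libraries was 14.2%, against 70.2% for Tal1. Ldb1 (chr19:46031570-46045214), which binds LMO2 and pairs with itself, measured 254, 54.2, 98.3 and 89.7 CPM in WT endosteal, 69.6, 99.6, 189.8 and 117 CPM in WT central, 94.7, 67.7, 62.8 and 33.4 CPM in Gfra2-/- endosteal and 68.5, 77.0 and 169 CPM in Gfra2-/- central libraries. All 4 groups overlapped, and WT endosteal A was the highest. Counting did not use strand, and 177 exon bases of Ldb1 overlap Pprc1 on the other strand, so reads there cannot be assigned to one gene.

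The zinc finger genes overlapped between all groups. Gata2 (chr6:88193891-88207032), which keeps stem cells from exhaustion, measured 668, 313, 246 and 501 CPM in WT endosteal, 497, 233, 499 and 307 CPM in WT central, 359, 379.8, 439 and 282 CPM in Gfra2-/- endosteal and 284, 381 and 384 CPM in Gfra2-/- central libraries. The spread was wider among WT libraries, with a coefficient of variation of 44.2% and 35.2% in the endosteal and central groups, than among libraries labelled Gfra2-/-, with 17.8% and 16.1%; the difference in spread was not tested. Gfi1b (chr2:28609450-28621982), a repressor that restrains stem cell proliferation and is needed for red cells and platelets, measured 82.1, 86.2, 43.5 and 102 CPM in WT endosteal, 45.2, 184, 68.2 and 20.5 CPM in WT central, 61.5, 203, 136 and 88.9 CPM in Gfra2-/- endosteal and 119, 119 and 37.3 CPM in Gfra2-/- central libraries. The WT central group alone spanned from the lowest value of all 15 libraries, in D with 61 reads, to a value that only Gfra2-/- endosteal B exceeded.

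Among the ETS genes and Runx1, single libraries set the extremes. Erg (chr16:95359169-95586593), which sustains stem cell self-renewal, measured 185, 87.6, 64.7 and 78.4 CPM in WT endosteal, 123, 139.9, 229 and 139 CPM in WT central, 48.0, 51.4, 89.6 and 157 CPM in Gfra2-/- endosteal and 112, 128 and 115 CPM in Gfra2-/- central libraries. WT central C, the shallowest library, was the highest. Fli1 (chr9:32422204-32542861), which also drives megakaryocytes, measured 113, 343, 177 and 293 CPM in WT endosteal, 372, 248, 332 and 341 CPM in WT central, 143, 401, 193 and 44.7 CPM in Gfra2-/- endosteal and 279, 184 and 273 CPM in Gfra2-/- central libraries. Both extremes of Fli1 were in the Gfra2-/- endosteal group, the lowest in D and the highest in B. Etv6 (chr6:134035700-134270158), a repressor that adult stem cells need to survive, measured 280.4, 224, 366 and 289 CPM in WT endosteal, 575, 333, 183 and 185 CPM in WT central, 333, 202, 359.9 and 231 CPM in Gfra2-/- endosteal and 314, 276 and 379 CPM in Gfra2-/- central libraries. The highest and the lowest Etv6 value both came from WT central libraries, A and C, with 636 and 137 reads. Runx1 (chr16:92601466-92826149), the DNA-binding part of core-binding factor, measured 413, 269, 249 and 196 CPM in WT endosteal, 123, 177, 76.2 and 323 CPM in WT central, 195, 104, 225 and 284 CPM in Gfra2-/- endosteal and 297, 224 and 174 CPM in Gfra2-/- central libraries. Its lowest value, in WT central C, rested on 57 reads, and all 4 groups overlapped. Etv6 and Runx1 share 135 and 106 exon bases with the antisense genes Gm17089 and Gm26626, which were not separated by strand.

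**Figure D2:**
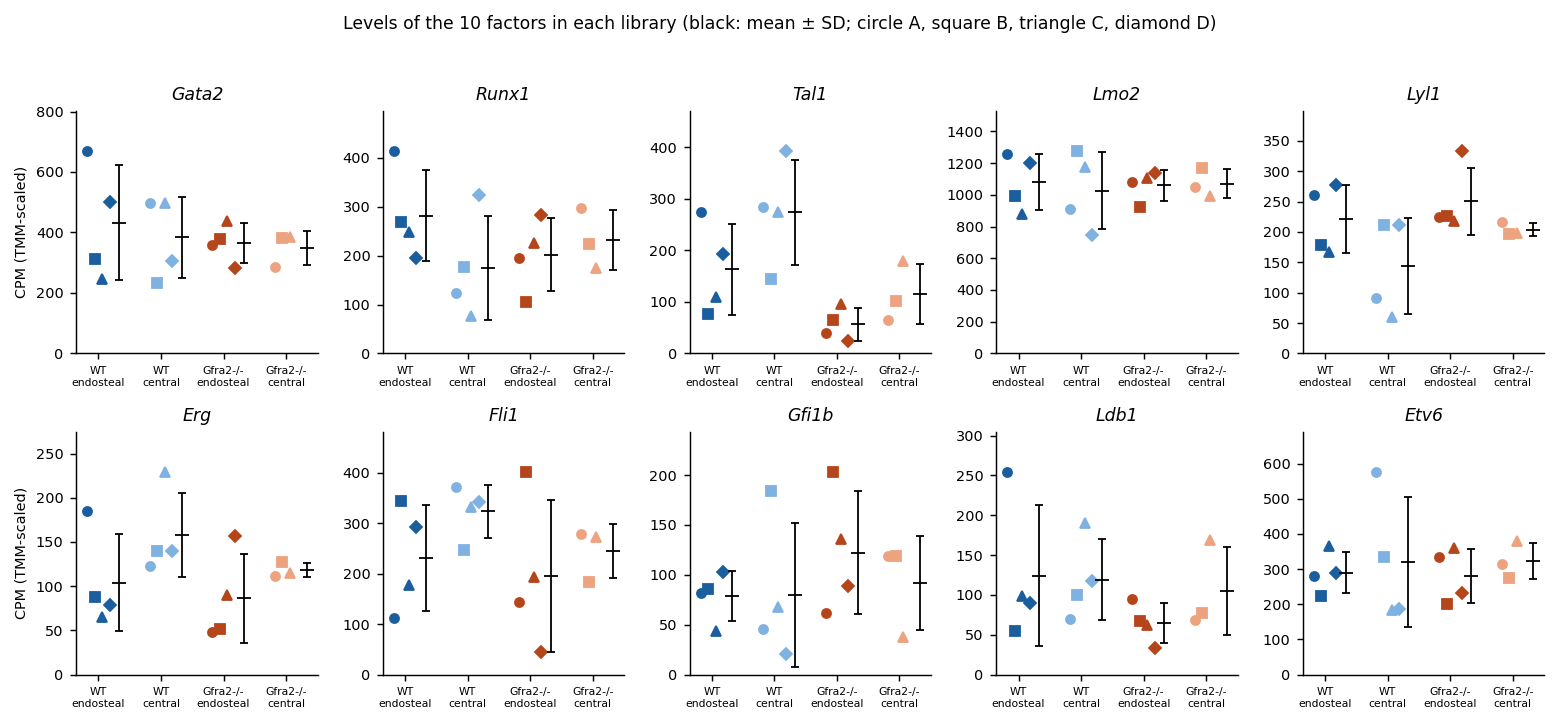
Levels of the 10 factors in TMM-scaled CPM, on axes from 0, with 1 symbol for each library by group and the group's mean ± SD in black. Tal1 runs from 23.5 to 392 CPM and is lower on average in both groups labelled Gfra2-/-, while Lmo2 stays between 745 and 1274 CPM.

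The comparison of endosteal with central WT HSCs asks whether the factors depend on where in the marrow the stem cells lie. No member passed an FDR of 0.1 in edgeR's quasi-likelihood test (0 of 10, adjusted p from 0.694 to 0.999), and over all 11181 genes tested 0% did. At an unadjusted p under 0.05 the count was also 0 of 10, where 7.89% of all genes passed. DESeq2 called 0 of the 10 and 4.49% of all genes. For 0 of 10 the groups did not overlap, which held for 6.37% of all genes. Tal1 had the smallest p and was 1.71-fold lower in endosteal HSCs (log2 fold change -0.77, SE 0.45, adjusted p = 0.694, 95% interval -1.75 to 0.20). With spike-in scaling its log2 fold change was 0.61, which is -1.16 relative to the median of all genes under that scaling. The other 9 had log2 fold changes from -0.62 (Erg) to 0.66 (Runx1), 5 members were higher and 5 lower, and the median was 0.01, beside 0.03 over all genes tested. For 3 of 10, Gata2, Lmo2 and Etv6, the 95% interval lay within a 2-fold change either way, and for the other 7 it reached beyond that.

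In libraries labelled Gfra2-/- the same comparison gave no call. The edgeR count at an FDR of 0.1 was 0 of 10, each with an adjusted p of 0.999, and 0% of all 13860 genes passed. At an unadjusted p under 0.05 it was 0 of 10, against 4.79% of all genes, and DESeq2 called 0 of 10 and 2.77% of all. Lyl1 was the 1 member whose groups did not overlap, as 7.35% of all genes did not. Its lowest endosteal library stood at 219 CPM and its highest central library at 217 CPM, and the fitted change was small (log2 fold change 0.30, SE 0.25, adjusted p = 0.999). Tal1 again had the smallest p, 2.06-fold lower in endosteal libraries (log2 fold change -1.04, SE 0.55, adjusted p = 0.999, 95% interval -2.29 to 0.21), with overlapping groups. The rest ran from -0.70 (Ldb1) to 0.41 (Gfi1b) on the log2 scale, and the median of the 10 was -0.19, beside 0.03 over all genes tested. Without Gfra2-/- endosteal D, Tal1 was -0.79 on the log2 scale, and without Gfra2-/- central C it was -0.56. Without both, the 2 libraries of low spike-in share, it was -0.29 (edgeR adjusted p = 0.998).

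Between the genotypes in endosteal BM, Tal1 had the smallest p of the members and was 2.88-fold lower in libraries labelled Gfra2-/- (log2 fold change -1.53, SE 0.53, adjusted p = 0.737, 95% interval -2.70 to -0.35). This comparison asks what the loss of GFRα2 does to stem cells next to bone. The unadjusted p of Tal1 was 0.0157 in edgeR, so 1 of 10 members lay under 0.05, against 6.69% of all 12970 genes tested. The edgeR count at an FDR of 0.1 was 0 of 10, and 0% of all genes passed, while DESeq2 called 0 of 10 and 3.72% of all. The Tal1 groups overlapped by 1 library each, since Gfra2-/- endosteal C (96.3 CPM) lay above WT endosteal B (76.3 CPM), and 0 of 10 members had groups apart, against 6.23% of all genes. The other members ran from -0.93 (Ldb1) to 0.64 (Gfi1b) on the log2 scale, and the median of the 10 was -0.24, beside 0.03 over all genes tested. Lmo2 was the most narrowly bounded, with a 95% interval of -0.43 to 0.38. Without Gfra2-/- endosteal B and D, the libraries with the most Gfra2 reads, Tal1 was at -1.27 on the log2 scale (edgeR adjusted p = 0.917).

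Between the genotypes in central BM, Tal1 was again lower in libraries labelled Gfra2-/-, 2.41-fold (log2 fold change -1.27, SE 0.48, adjusted p = 0.470, 95% interval -2.31 to -0.22). None of these 7 libraries entered the endosteal comparison. The study flushed bones for the central cells and crushed the remaining bone for the endosteal ones, so the compartments may share mice. The comparisons may therefore not be independent. The unadjusted edgeR p was 0.0213, so 1 of 10 members lay under 0.05, against 8.73% of all 11772 genes. The edgeR count at an FDR of 0.1 was 0 of 10, with 0.051% of all genes called, and DESeq2 called 0 of 10 and 5.14% of all. Gfra2-/- central C (180.2 CPM) lay above WT central B (144 CPM), and 0 of 10 members had groups apart, against 12.4% of all genes. The others ran from -0.44 (Erg) to 0.47 (Lyl1) on the log2 scale, and the median was -0.08, beside 0.03 over all genes tested. Without WT central D, which holds neutrophil genes, the log2 fold change of Tal1 was -1.05 (edgeR adjusted p = 0.490).

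**Figure D3:**
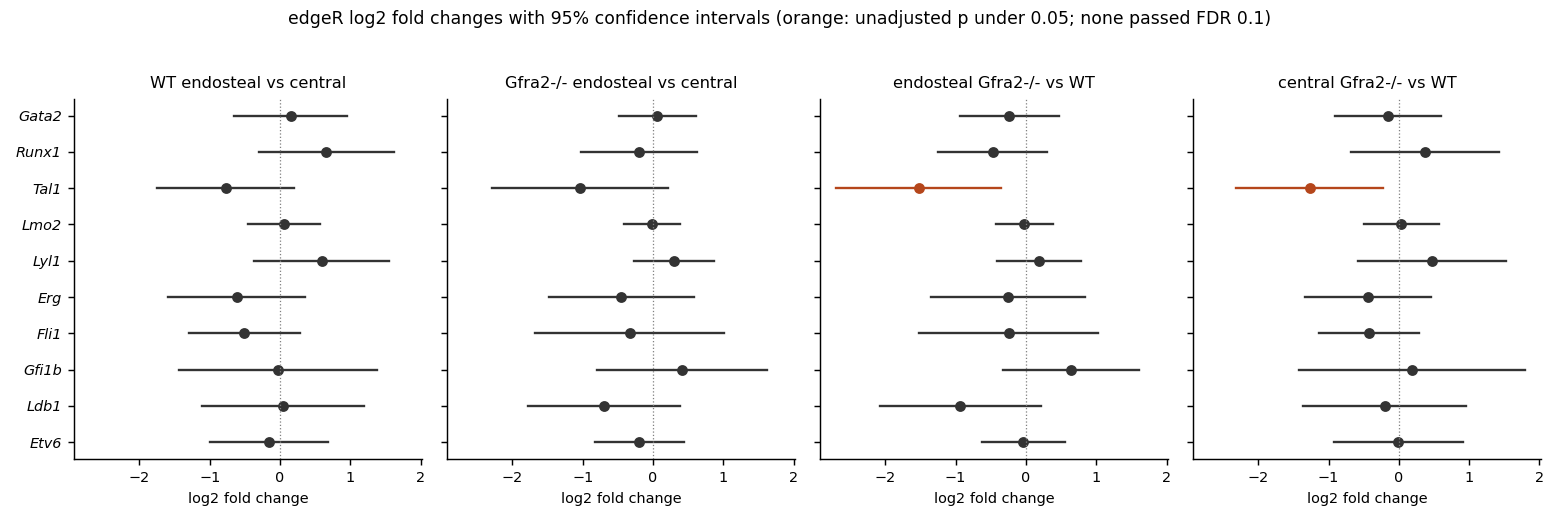
Log2 fold changes of the 10 factors from edgeR (points) with 95% confidence intervals (lines) in the 4 comparisons, with those under an unadjusted p of 0.05 in orange. The interval of Tal1 lies below 0 in both comparisons between the genotypes, at log2 fold changes of -1.53 and -1.27, and every other interval spans 0.

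The lower Tal1 value in libraries labelled Gfra2-/- was seen within each spike-in class. Among libraries with at least 0.5% spike-in reads the difference of mean log2(CPM + 1) was -1.05 in endosteal HSCs (3 libraries a group) and -1.45 in central HSCs (2 against 3). Among the 4 libraries under 0.5%, with 1 library a group and no test, it was -2.98 and -1.12. Counts thinned to the smallest library gave -1.68 (edgeR adjusted p = 0.606) and -1.38 (adjusted p = 0.413) for the 2 compartments. Scaling by spike-in reads moved the median of all genes by 1.60 on the log2 scale, to 1.63, in the central comparison, and Tal1 then stood at 0.20, or 1.43 below that median. In the endosteal comparison it moved the median by -0.23, and Tal1 stood at -2.29.

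**Figure D4:**
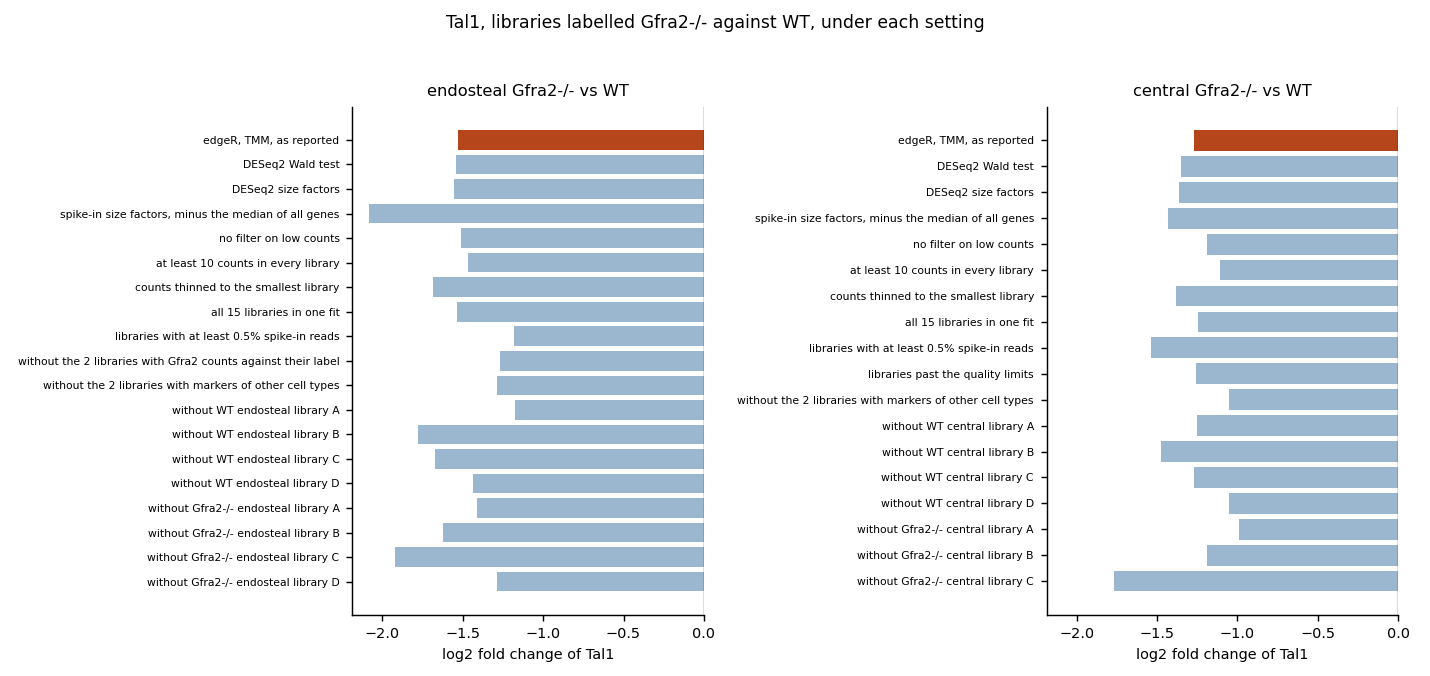
Log2 fold change of Tal1 in libraries labelled Gfra2-/- against WT, for endosteal (left) and central (right) HSCs, with the reported edgeR value in orange and each alternative setting as a blue bar from 0. Bars run from -2.08 to -1.18 in endosteal and from -1.77 to -0.99 in central HSCs, and the spike-in bar is relative to the median of all genes.

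An interaction term, fitted to the 15 libraries together, tested whether the compartment difference depends on genotype. Runx1 had the smallest p of the members (log2 fold change -0.88, SE 0.61, adjusted p = 0.802 in edgeR), with endosteal minus central at 0.66 in WT and -0.19 in libraries labelled Gfra2-/-. With spike-in scaling, relative to the median of all genes, its direction turned to 0.88. The edgeR count at an FDR of 0.1 was 0 of 10, and 0% of 15416 genes passed. At an unadjusted p under 0.05 it was 0 of 10, against 6.97% of all genes, and DESeq2 called 0 of 10 and 1.68%. For Tal1 the interaction was -0.29 with a 95% interval of -1.81 to 1.24. For 9 of the 10 members the 95% interval reached below -1.

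After the Tal1 values were seen, each factor was also compared over both compartments in one fit of the 15 libraries. Averaged over endosteal and central HSCs, Tal1 was 2.62-fold lower in libraries labelled Gfra2-/- (log2 fold change -1.39, SE 0.37, adjusted p = 0.122 in edgeR, 95% interval -2.18 to -0.60), which missed the FDR of 0.1. The edgeR count was 0 of 10 members, with 0.824% of all genes called, and 1 of 10, Tal1, lay under an unadjusted p of 0.05, against 14.5% of all genes. DESeq2 called 1 of 10, Tal1 (log2 fold change -1.44, adjusted p = 0.00961), and 9.89% of all genes. Averaged over the genotypes, Tal1 was 1.86-fold lower in endosteal than in central HSCs (log2 fold change -0.89, SE 0.36, adjusted p = 0.397 in edgeR). There edgeR called 0 of 10 members and 0.0519% of all genes, 1 of 10 lay under an unadjusted p of 0.05, against 10.8% of all genes, and DESeq2 called 0 of 10 and 4.9%. These averages use the same libraries as the comparisons above and are not independent of them.

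Ratios within a library do not depend on its scaling, so 5 pairs of partner genes were compared. The pair of bHLH genes differed most. The log2 ratio of Lyl1 to Tal1 counts was -0.07, 1.22, 0.61 and 0.53 in WT endosteal and -1.64, 0.55, -2.18 and -0.89 in WT central libraries. It was 2.50, 1.79, 1.18 and 3.82 in Gfra2-/- endosteal and 1.73, 0.96 and 0.14 in Gfra2-/- central libraries. Per kilobase, Lyl1 exceeded Tal1 in all libraries but WT central A and C, by up to 34.4-fold in Gfra2-/- endosteal D. The ratio was 3.36-fold higher in Gfra2-/- than WT endosteal libraries (exact permutation test, two-sided p = 0.0571, adjusted p = 0.571 over 20 tests) and 3.94-fold higher in Gfra2-/- than WT central libraries (exact p = 0.0857, adjusted p = 0.571). It was 3.05-fold higher in endosteal than central WT libraries (exact p = 0.0857) and 2.60-fold higher in endosteal than central libraries labelled Gfra2-/- (exact p = 0.114), each with an adjusted p of 0.571. Without Gfra2-/- endosteal D the log2 ratio was higher than in WT endosteal libraries by 1.25, where all libraries gave 1.75. Without B and D, the 2 with the most Gfra2 reads, the log2 ratio was higher by 1.27. Between endosteal and central libraries labelled Gfra2-/- the log2 difference was 0.48 without the 2 libraries of low spike-in share (exact permutation p = 0.4), where all 7 gave 1.38. The smallest p this exact test can give is 0.0286 for 4 against 4 libraries, also for 4 against 3. Adjusted over 20 tests, 1 ratio alone at that p could not pass 0.1. The other 4 pairs, Fli1 to Erg, Ldb1 to Lmo2, Gfi1b to Gata2 and Etv6 to Runx1, had exact p-values from 0.171 to 0.943 in the 4 comparisons, and no pair had groups apart. Per kilobase, Ldb1 ranged from 0.0138 to 0.0951 times Lmo2, the lowest in Gfra2-/- endosteal D and the highest in WT endosteal A.

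**Figure D5:**
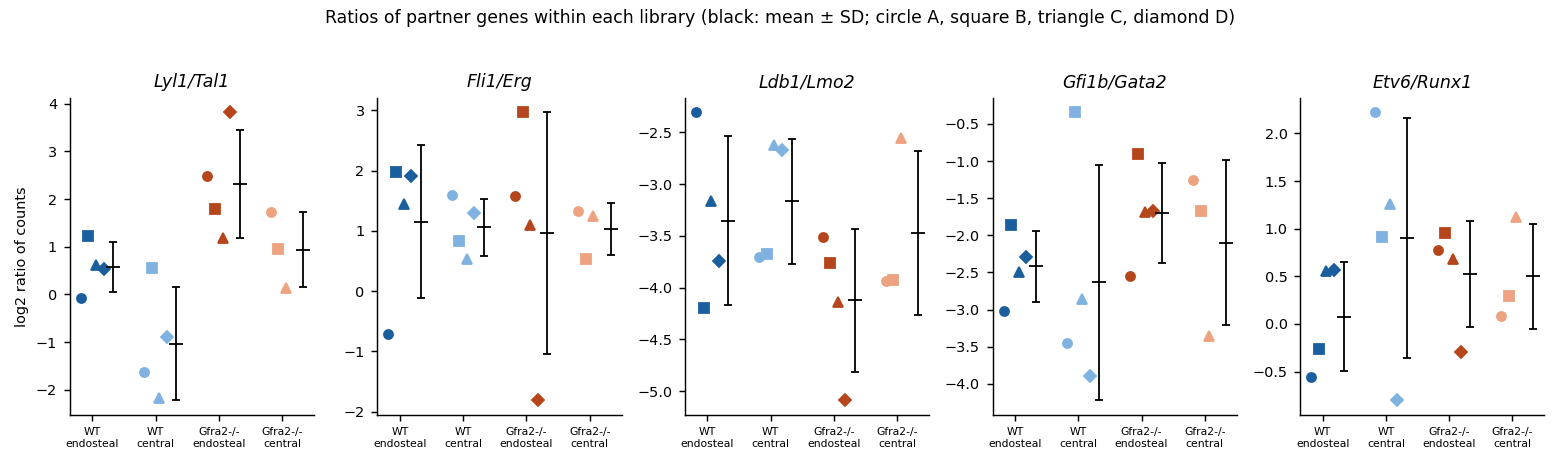
Log2 ratios of read counts of 5 pairs of partner genes within each library, with 1 symbol a library and the group's mean ± SD in black. The ratio of Lyl1 to Tal1 runs from -2.18 in WT central C to 3.82 in Gfra2-/- endosteal D, with overlapping groups.

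The pattern over the 15 libraries was shared by few pairs of members. Of the 45 pairs, Tal1 and Ldb1 were the most alike (Pearson r of log2(CPM + 1) = 0.71), then Runx1 and Lyl1 (r = 0.68) and Lmo2 and Gfi1b (r = 0.63). Lyl1 and Fli1 were the least alike (r = -0.50). The median over the 45 pairs was -0.02, with 20 above 0 and 25 below. These points share libraries, depth and groups, and the values are a description only.

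Partners and cofactors of the 10 proteins, other blood transcription factors and known targets were read from lists chosen with earlier results of these data known. Of 17 cofactors all were tested, and 0 passed an FDR of 0.1 in any of the 4 comparisons in edgeR. Over all genes, 7.89%, 4.79%, 6.69% and 8.73% lay under an unadjusted p of 0.05 in these comparisons, and 6.97% in the interaction, in both directions together, and the counts of all 3 lists are read against these shares. With an unadjusted p below 0.05, 0 of 17 were higher and 3 lower in endosteal than central WT HSCs, led by Tcf4, a partner of TAL1 and LYL1 (log2 fold change -0.83, SE 0.32, adjusted p = 0.578). The Tcf4 values were 123, 123, 123 and 126 CPM in WT endosteal and 211, 212, 222 and 219.7 CPM in WT central libraries, which did not overlap, as held for 6.37% of all genes. In libraries labelled Gfra2-/- the count was 1 higher and 0 lower, Cbfa2t2, a corepressor of the ETO family (log2 fold change 1.86, SE 0.67, adjusted p = 0.999). Cbfa2t2 measured 95.7, 510.0, 165 and 83.6 CPM in Gfra2-/- endosteal and 78.1, 63.2 and 35.5 CPM in Gfra2-/- central libraries. Without endosteal B, the library with the most Gfra2 reads, its log2 fold change was 0.96. Between genotypes it was 1 higher and 2 lower in endosteal HSCs, led by Zfpm1, the GATA partner FOG1 (log2 fold change -1.44, SE 0.52, adjusted p = 0.737), and 0 higher and 2 lower in central HSCs, led by Kdm1a (log2 fold change -1.84, SE 0.55, adjusted p = 0.352). Zfpm1 measured 105, 96.7, 75.4 and 128 CPM in WT endosteal and 66.7, 14.5, 47.0 and 20.0 CPM in Gfra2-/- endosteal libraries. The lowest were B and D, the libraries with the most Gfra2 reads. Over the alternatives run, the log2 fold change of Zfpm1 ranged from -1.95 to -0.83, with the spike-in value relative to the median of all genes. Kdm1a, the demethylase used by GFI1B, stood at 157, 161, 146 and 65.5 CPM in WT central and 26.3, 46.6 and 39.9 CPM in Gfra2-/- central libraries, with no overlap, as held for 12.4% of all genes. The median log2 fold changes of the 17 were 0.14, 0.03, -0.18 and -0.48 in these 4 comparisons, where the medians of all genes were 0.03 in each. DESeq2 called 1, 0, 0 and 1 of them, where it called 4.49%, 2.77%, 3.72% and 5.14% of all genes. In the interaction Tcf4 had the smallest p (log2 fold change 1.13, SE 0.39, adjusted p = 0.539 in edgeR), with 1 of 17 higher and 0 lower under 0.05.

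Among 23 other blood transcription factors, 19 to 21 were tested in the 4 comparisons and 0 passed an FDR of 0.1 in edgeR. Gata1, the factor of red cells and platelets that replaces GATA2 as they mature, stood at 62.7, 9.57, 65.7 and 60.1 CPM in WT endosteal and 5.42, 0.310, 1.34 and 0.336 CPM in WT central libraries (log2 fold change 4.85, SE 1.24, adjusted p = 0.368), with no overlap, as held for 6.37% of all genes. The WT central values rest on 6, 1, 1 and 1 reads. Gata1 thus passed the filter on low counts through the endosteal group, where it is high, which favours this direction. Under an unadjusted p of 0.05, 3 of 19 were higher, Gata1 among them, and 3 lower in this comparison. In libraries labelled Gfra2-/- 1 of 21 was higher and 0 lower, Klf1, a red cell factor, at 8.77, 28.3, 1.27 and 2.44 CPM in endosteal and 0.196, 0 and 0 CPM in central libraries, a level at which the central group is at or near 0. It likewise passed the filter through the group where it is high. Klf1 is 1 of the 7 erythroid markers, whose sum was highest in endosteal D, where Klf1 stood at 2.44 CPM. Between genotypes 4 of 19 were higher and 0 lower in endosteal HSCs, led by Hhex, a homeobox factor of early progenitors (log2 fold change 1.48, SE 0.43, adjusted p = 0.664), and 3 of 19 were higher and 0 lower in central HSCs, led by Ets1 (log2 fold change 2.78, SE 0.91, adjusted p = 0.381). Hhex measured 43.0, 91.9, 149 and 69.9 CPM in WT endosteal and 146, 269, 192 and 378 CPM in Gfra2-/- endosteal libraries. The highest were B and D, the libraries with the most Gfra2 reads. Over the alternatives run, the log2 fold change of Hhex ranged from 0.93 to 1.86, with the spike-in value relative to the median of all genes. Ets1, a relative of ERG and FLI1 known from lymphocytes, measured 1.81, 14.9, 8.02 and 9.07 CPM in WT central and 43.3, 80.8 and 55.6 CPM in Gfra2-/- central libraries. B cell genes summed to 8.37 to 288 CPM in the former and 43.5 to 321 CPM in the latter, and their part in the Ets1 value was not tested. In the interaction 3 of 23 were higher and 1 lower under 0.05, and Pax5, a B cell factor, had the smallest p (adjusted p = 0.523 in edgeR), with Gfra2-/- endosteal D at 18.5 CPM and WT central D at 129 CPM, with at most 1.15 CPM in the other libraries. DESeq2 called 2, 1, 1 and 2 of the factors in the 4 comparisons, and the median log2 fold changes of those tested were -0.36, 0.12, 0.08 and -0.19.

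Of 12 genes known as targets of these factors, 8 or 9 were tested, and 0 passed an FDR of 0.1 in edgeR in the 4 comparisons. In WT, 2 of 9 were higher and 0 lower in endosteal HSCs under an unadjusted p of 0.05, led by Gp1ba, a platelet receptor subunit (log2 fold change 3.29, SE 1.06, adjusted p = 0.481). Gp1ba had few reads in WT central libraries, as given below. It passed the filter on low counts through the endosteal group, where it is high, which favours this direction. In libraries labelled Gfra2-/- the count was 0 in either direction. Between genotypes Eng, a TGF-β co-receptor of HSCs, was the 1 of 9 under that p in endosteal HSCs, with a higher value (log2 fold change 0.62, SE 0.28, adjusted p = 0.741). In central HSCs 4 of 8 were higher and 0 lower, led by Pf4, a platelet chemokine (log2 fold change 4.23, SE 1.12, adjusted p = 0.318), at 10.8, 6.20, 1.34 and 0.672 CPM in WT and 45.2, 204 and 24.7 CPM in Gfra2-/- libraries. The WT central values of Pf4 rest on 12, 20, 1 and 2 reads. Pf4 likewise passed the filter on low counts through the central group labelled Gfra2-/-, where it is high, which favours this direction. The median log2 fold changes of the targets tested were 0.81, -0.16, 0.04 and 0.95 in the 4 comparisons, and DESeq2 called 1, 0, 0 and 2. In the interaction 0 were higher and 2 lower under 0.05, led by Gp1ba (log2 fold change -6.15, SE 2.41, adjusted p = 0.598 in edgeR). Gp1ba measured 18.2, 5.38, 13.1 and 20.7 CPM in WT endosteal, 1.81, 0.930, 1.34 and 1.68 CPM in WT central, 2.43, 8.36, 0.115 and 0.0873 CPM in Gfra2-/- endosteal and 56.8, 2.45 and 0 CPM in Gfra2-/- central libraries. WT central libraries held 1 to 5 reads of it and Gfra2-/- endosteal C and D 1 read each. Without Gfra2-/- central A, the highest, the interaction of Gp1ba was -2.19 (edgeR adjusted p = 0.946). In the average over both compartments, chosen after values were seen, Eng alone of the 12 passed an FDR of 0.1 between the genotypes, and it was 2.02-fold higher in libraries labelled Gfra2-/- (log2 fold change 1.01, SE 0.24, adjusted p = 0.0818 in edgeR), where 0.824% of all genes passed. With 1 library left out in turn the call held in 4 of 15 fits (edgeR adjusted p from 0.0687 to 0.206). Eng shares 61 exon bases with Fpgs on the other strand.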

How the data were processed

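RNA was measured in pools of 30 HSCs by Smart-seq2, and the authors aligned the reads to mm10 (GRCm38) with GSNAP, counted them on genes with HTSeq (0.5.3p3) without regard to strand, and deposited the raw counts. The table covers 46078 genes, and it also has 92 spike-in RNAs besides 5 categories of reads not assigned. The spike-in RNAs and categories were left out of library sizes and tests. The summary categories named reads outside genes (10.6 to 29.9% of each library), ambiguous reads (4.08 to 9.25%) and unaligned reads (20.1 to 65.6%). The labels describe 16 samples, 15 columns were assigned to groups through the sample lists of the supplement, and 1 column was not used. The study calls the pools of a group biological replicates, but the sources used here do not tie pools to mice, so p-values measure the spread between these libraries.

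Gene positions came from GENCODE M21 (GRCm38). The counts were tested with edgeR 4.0.16 (R 4.3.3) on the libraries of the 2 groups compared, with filterByExpr, TMM scaling, its quasi-likelihood test and p-values adjusted by Benjamini-Hochberg, at a threshold of 0.1. The interaction used all 15 libraries. DESeq2 1.42.0 was the alternative, and other alternatives covered scaling, filters, thinning, spike-in share, quality limits (over 1500000 reads, under 20% mitochondrial reads) and single libraries. The fit was tested on simulated data. Partner ratios used counts + 0.5 and exact permutation tests (scipy 1.17.1), adjusted over 20 tests. The 10 genes and all lists were chosen with earlier results of these data known. Values were given for each of the 10 in every library, and fold changes for those with an unadjusted p under 0.05, groups apart or the smallest p of a comparison. From the other lists the gene with the smallest p was named, except 1 that is not reported here. Smart-seq2 reads carry no molecular identifiers, so PCR copies were counted as reads.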

Additional observations from a re-analysis of the deposited data

Results flagged for a closer look

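In 2 of 45 groups of 4 libraries examined (10 genes and 5 ratios in 3 groups), 1 library stood far from the other 3, about the share that chance flags (1 in 20). Lyl1 stood at 333 CPM in Gfra2-/- endosteal D, where the other 3 libraries of the group lay between 219 and 227 CPM. That library also holds B cell genes at a summed 1837 CPM, and their part in the Lyl1 value was not tested. Erg stood at 229 CPM in WT central C, where the other 3 lay between 123 and 139.9 CPM. That library is the shallowest of the 15, with 826487 reads on genes, and 171 of them fell on Erg.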

How the results depend on the processing

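No member passed an FDR of 0.1 in the 4 comparisons or the interaction under any alternative run. In the average of the genotypes over both compartments the count went from 0 to 1, Tal1, with DESeq2 (log2 fold change -1.44), with at least 10 counts in every library (-1.27) and with thinned counts (-1.56), and the cause was not tested. It was 0 with any single library left out. Tal1 kept its direction in the 4 comparisons and both averages under every alternative run when spike-in values are read against the median of all genes. The direction of its interaction was not followed over the alternatives. With 1 library left out, the log2 fold change of Tal1 between genotypes ran from -1.92 to -1.18 in endosteal HSCs (edgeR p from 0.00733 to 0.0538). In central HSCs it ran from -1.77 to -0.99 (edgeR p from 0.00763 to 0.0841). The adjusted p ran from 0.180 to 0.9996 and from 0.225 to 0.944 over all alternatives. The Runx1 interaction reversed to 0.88 with spike-in size factors, relative to the median of all genes, which that scaling moved by -2.04; the cause was not tested. No ratio passed an adjusted p of 0.1 under any alternative. The Lyl1 to Tal1 difference kept its direction in each (log2 ratio from 0.48 to 2.51, smallest adjusted p 0.429), and each of the other pairs changed direction in some. Spike-in scaling moved the median by 1.74, -0.63, -0.23 and 1.60 in the 4 comparisons. DESeq2 called 606, 397, 535 and 725 genes where edgeR called 0, 0, 0 and 6. Quality limits removed WT central A and C only, the 2 shallowest libraries. No paired analysis was possible because no replicate number could be tied to a column of counts. Of the listed genes named, all kept their direction in every alternative run when spike-in values are read against the median of all genes. Tcf4, Kdm1a, Gata1, Klf1, Hhex, Ets1, Gp1ba, Pf4 and Spi1 passed an FDR of 0.1 with DESeq2 but not in the reported edgeR fits. Pf4 also passed with no filter on low counts (edgeR adjusted p = 0.0135) and Pax5 with spike-in scaling (0.0462). With 3 or 4 pools a group, of 826487 reads upward, the 95% interval lay within a 2-fold change for only 3 or 4 of the 10 genes in each comparison.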

Other observations

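Other genes of the lists, named after their values were seen, lay above the WT central libraries in WT endosteal and Gfra2-/- central libraries, with no call in edgeR. Spi1, which drives myeloid and B cells, stood at 37.0, 24.5, 5.35 and 22.2 CPM in WT central, 172, 40.8, 57.1 and 58.2 CPM in WT endosteal and 99.97, 85.1 and 98.7 CPM in Gfra2-/- central libraries. It was above the WT central group without overlap in both (edgeR adjusted p = 0.586 and 0.426), as held for 6.37% and 12.4% of all genes. Its Gfra2-/- endosteal values, 53.9, 119, 71.7 and 114 CPM, also lay above all WT central libraries. Nfe2, a megakaryocyte factor, stood at 272, 292, 246 and 321 CPM in WT central, 465, 427, 377 and 512 CPM in WT endosteal and 376, 486 and 522 CPM in Gfra2-/- central libraries (edgeR adjusted p = 0.586 and 0.528). In Gfra2-/- endosteal libraries Nfe2 stood at 608, 509, 367 and 260 CPM, and D lay within the WT central range. Both comparisons share the WT central libraries, which are the shallowest. Rcor1, the partner of KDM1A in repression by GFI1B, stood at 400.5, 242, 192 and 179.8 CPM in WT endosteal and 19.0, 80.0, 168 and 83.7 CPM in Gfra2-/- endosteal libraries, with no overlap (log2 fold change -1.53, SE 0.56, adjusted p = 0.737 in edgeR), as held for 6.23% of all genes.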
